A study of Mus musculus with 2 samples.

Results

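Adgre1, Cd68, C1qa, C1qb, Mrc1, Vcam1, Apoe, Cx3cr1, Nr4a1 and Treml4 are 10 genes by which macrophages and Ly6C-low monocytes are recognised. They were chosen by name out of 13211 genes listed over both count tables, and all 10 were listed in both. Single-cell RNA sequencing (sc-RNA-seq) had been performed on unfractionated live bone marrow cells of 2-month-old mice, flushed from femur and tibia. The Col1a1fspKO group was Fsp1-Cre;Col1a1flox/flox, in which Cre driven by the Fsp1 (S100a4) promoter deletes floxed Col1a1, the type I collagen gene, in Fsp1-lineage cells. The WT group was Cre-negative littermates that carry the same Col1a1flox/flox alleles. Each group was 1 library of marrow pooled from 2 mice, so the genotypes could not be compared by a test, and every interval given here is a 95% interval that covers counting error only.

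Tissue macrophages engulf dying cells, and in the marrow they also surround developing red cells and hold stem cells in place. Classical monocytes carry much Ly6C, leave the marrow through Ccr2 and in part mature into Ly6C-low monocytes. The latter patrol the vessel wall, carry much Cx3cr1 and depend on the nuclear receptor Nr4a1.

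The libraries held 1309 (Col1a1fspKO) and 1169 (WT) cells with a median depth of 4954 and 5534 unique molecular identifiers (UMIs, 1 per counted RNA molecule), and 2 cell barcodes occurred in both. Col1a1 had 3 UMIs in Col1a1fspKO and 0 in WT, which is too few to check the genotype labels. Clustering without the 10 genes and without both lists of related genes gave 15 clusters. Of these, 3 were Mono/Macro-like by markers such as Csf1r, Ccr2 and Fn1, with 267 Col1a1fspKO and 276 WT cells. The mature cluster, with 174 Col1a1fspKO and 187 WT cells, was led by Wfdc17, Sirpb1c and Clec4a3 and had Apoe among its 10 leading genes. The 2 early clusters, with 93 and 89 cells, were led by Ass1 and Klf4. The classes used to name clusters held none for resident macrophages, and the list of their genes was left out of the clustering. Whether such a cluster was present was therefore not tested. Of 23 resident macrophage genes 18 were listed, and 9 of those had fewer than 50 UMIs. Over both libraries Timd4 had 1 UMI, Mertk 4 and Cd5l 6, the fewest among the listed genes, while Slc40a1 had 879, Csf1r 590 and Acp5 528. Mono/Macro-like cells held 2.73% of the Slc40a1 UMIs, 89.3% of those of Csf1r and 4.55% of those of Acp5.

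Adgre1 (chr17:57358691-57483527, plus strand, GRCm38 as for all positions here) encodes F4/80, the classical surface antigen of mouse macrophages. Mature monocytes held 104 CPM (84.9 to 127) in the Col1a1fspKO library and 93.1 CPM (75.0 to 114) in the WT library, where CPM is counts per 1000000 UMIs. Early monocytes held 11.8 CPM (6.10 to 20.6) in the Col1a1fspKO library and 24.0 CPM (15.2 to 35.9) in the WT library. Adgre1 was thus higher in mature cells, by 8.85 (4.85 to 17.7) times in Col1a1fspKO and 3.89 (2.44 to 6.44) times in WT. With every cell thinned to 2500 UMIs the WT log2 ratio was 0.85 with an interval that included 0. Mono/Macro-like cells together held 91.7% of the Adgre1 UMIs of Col1a1fspKO and 95.8% of those of WT. No cell held more than 6 Adgre1 UMIs, so the transcript was spread thinly over many monocytes.

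Cx3cr1 (chr9:119901616-120069879, minus strand), the fractalkine receptor, took the same order. Its level in mature monocytes was 167 CPM (142 to 195) in the Col1a1fspKO library and 169.9 CPM (145 to 198) in the WT library. Its level in early monocytes was 36.4 CPM (25.6 to 50.1) in the Col1a1fspKO library and 24.99 CPM (16.0 to 37.2) in the WT library. Mature cells were higher by 4.58 (3.19 to 6.75) times in Col1a1fspKO and 6.80 (4.41 to 10.9) times in WT. T/NK cells-like cells of Col1a1fspKO had 6 UMIs in 4 of 58 cells, or 20.5 CPM (7.53 to 44.6), which overlapped early monocytes. The same class of WT had 0 UMIs in 32 cells, where a limit of 3 cells allows a share of up to 9.38% of cells with a UMI.

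Cd68 (chr11:69664213-69666153, minus strand), a lysosomal membrane protein of phagocytes, was less tied to the mature stage than Cx3cr1 in both libraries. Against Adgre1 this held beyond counting error in Col1a1fspKO only, since the intervals of the WT ratios overlapped. Mature monocytes held 222 CPM (193 to 254) in the Col1a1fspKO library and 256 CPM (225 to 289.6) in the WT library. Early monocytes held 114 CPM (94.2 to 137) in the Col1a1fspKO library and 84.4 CPM (67.0 to 105) in the WT library. Mature cells exceeded early cells by 1.94 (1.54 to 2.46) times in Col1a1fspKO and 3.03 (2.35 to 3.95) times in WT. Plasmacytoid dendritic-like cells, led by Siglech, lay between these stages with 149 CPM (100.8 to 213) in the Col1a1fspKO library and 129 CPM (75.0 to 206) in the WT library. Their interval overlapped that of early monocytes in both libraries and that of mature monocytes in Col1a1fspKO. B cells-like cells, which should lack Cd68, had a UMI in 1.61% (0.441 to 4.08) of cells in the Col1a1fspKO library and 2.71% (1.003 to 5.82) in the WT library, at median depths of 4326 and 5469 UMIs.

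**Figure D1:**
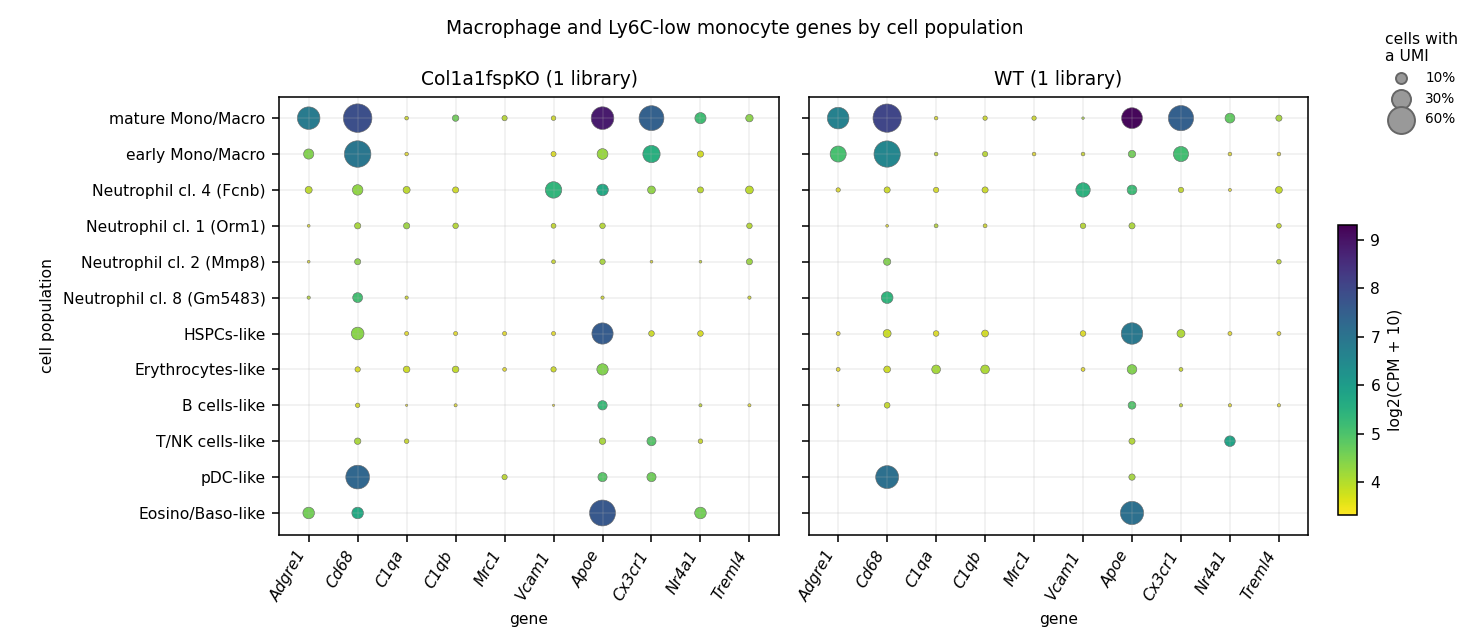
Each panel is 1 library. Rows are cell populations, columns are the 10 genes, colour is log2(CPM + 10) and circle area is the percentage of cells with at least 1 UMI. Adgre1, Cd68, Apoe and Cx3cr1 were highest in mature Mono/Macro-like cells, and Vcam1 was highest in Neutrophil-like cluster 4, led by Fcnb, at 31.9 CPM (Col1a1fspKO) and 34.7 CPM (WT).

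Apoe (chr7:19696109-19699188, minus strand), the lipid carrier apolipoprotein E, separated the monocyte stages by the largest ratio among the 4 genes with at least 50 monocyte UMIs. Mature monocytes held 459 CPM (417 to 504) in the Col1a1fspKO library and 575 CPM (529 to 625) in the WT library. Early monocytes held 8.85 CPM (4.05 to 16.8) in the Col1a1fspKO library and 14.6 CPM (7.97 to 24.5) in the WT library, and 10 of the 14 UMIs in early WT cells came from 1 cell. Mature cells were higher by 51.9 (27.1 to 114) times in Col1a1fspKO and 39.5 (23.3 to 72.6) times in WT. Apoe was uneven within the mature cluster, with a UMI in 74 of 174 Col1a1fspKO cells and 67 of 187 WT cells. The 10 cells richest in Apoe held 46.4% and 44.1% of the cluster's Apoe UMIs respectively. A single cell held up to 29 UMIs in Col1a1fspKO and 39 in WT.

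Apoe was also counted in progenitors and basophils. HSPCs-like cells, the stem and progenitor cluster led by Mt2, Cd34 and Mpo, held 182 CPM (155 to 212) in the Col1a1fspKO library and 110.4 CPM (91.5 to 132) in the WT library. These amounted to 22.3% and 14.9% of all Apoe UMIs. Among them, cells with a UMI of Car1, a carbonic anhydrase of early red cell precursors, held 279.6 CPM (226 to 342) over 17 Col1a1fspKO cells and 206 CPM (163 to 257) over 23 WT cells. Cells with no Car1 UMI but a UMI of the granule enzyme Mpo held 111 CPM (80.0 to 149) and 49.0 CPM (32.3 to 71.3). The intervals of these subsets did not overlap in either library. The split was chosen after the values had been seen, and the cells with Car1 were deeper, with median depths of 22565 and 17001 UMIs against 9743 and 13628. Eosino/Baso-like cells, led by the proteases Prss34 and Mcpt8, held 196 CPM (107 to 329) in the Col1a1fspKO library and 129 CPM (70.5 to 216) in the WT library, over 9 and 18 cells. Their intervals overlapped those of HSPCs-like cells.

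C1qa (chr4:136895917-136898803, minus strand) and C1qb (chr4:136880129-136886187, minus strand) are neighbouring genes for chains of complement C1q, a major product of tissue macrophages. C1qa had 22 UMIs in each library, while C1qb had 28 UMIs in Col1a1fspKO against 23 in WT. The molecules were scattered, since 62 cells had a UMI of either gene and 47 of them had exactly 1. Of these 62 cells, 47 were not Mono/Macro-like. Either gene was found in 2.996% (1.30 to 5.82) of Mono/Macro-like cells of Col1a1fspKO and 2.54% (1.03 to 5.16) of those of WT. Erythrocytes-like cells, the red cell precursors led by Slc4a1 and Hba-a1, had shares of 4.76% (1.31 to 11.7) and 10.1% (4.47 to 18.98) at median depths of 9209.5 and 11118 UMIs. B cells-like cells, which should lack C1q, gave 1.21% (0.250 to 3.49) in Col1a1fspKO and 0 of 221 cells in WT, where a limit of 3 cells allows up to 1.36%, at depths of 4326 and 5469 UMIs. With cells thinned to 2500 UMIs the share in WT Erythrocytes-like cells was 5.06% (1.40 to 12.5). In Mono/Macro-like cells of Col1a1fspKO and WT it was 1.87% (0.611 to 4.32) and 1.09% (0.225 to 3.14). In Col1a1fspKO the share in Mono/Macro-like cells overlapped that in B cells-like cells, thinned or not. As a summed level, however, C1qa and C1qb were at 9.16 CPM (5.43 to 14.5) in Mono/Macro-like cells in the Col1a1fspKO library and at 7.23 CPM (3.95 to 12.1) in the WT library. B cells-like cells had 1.84 CPM (0.379 to 5.38) in Col1a1fspKO and 0 UMIs in WT. The Mono/Macro-like level lay above that of B cells-like cells beyond counting error in both libraries, narrowly so in Col1a1fspKO. There 5 of the 18 UMIs came from 1 cell, and 1 cell held 8 of the 14 WT UMIs. Summing all Neutrophil-like cells gave 7.15 CPM (4.30 to 11.2) for Col1a1fspKO, beside 5.17 CPM (2.75 to 8.84) for WT. Erythrocytes-like cells reached 7.59 CPM (3.05 to 15.6) in the former library, with 14.1 CPM (7.52 to 24.2) in the latter. Each of these classes overlapped Mono/Macro-like cells in each library, so C1q was not particular to monocytes.

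Cells with several C1q molecules were few. All of C1qa, C1qb and C1qc, the gene of the remaining chain, were found in 4 cells, and 2 cells had 5 or more UMIs of C1qa and C1qb together. The first was a WT cell of an early monocyte cluster with 12859 UMIs, among them 4 of C1qa, 4 of C1qb, 6 of C1qc and 10 of Apoe, and none of Adgre1 or Cd68. The second was a mature Col1a1fspKO monocyte with 5528 UMIs, among them 5 of C1qb, 6 of Apoe, 1 of Adgre1 and 1 of Cd68. Neither was called a doublet. Mrc1 (chr2:14229392-14332057, plus strand), the mannose receptor CD206, had 8 UMIs in Col1a1fspKO against 4 in WT, of which 5 and 4 lay in Mono/Macro-like cells. The intervals of neighbouring populations overlapped throughout its order.

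Vcam1 (chr3:116109949-116129688, minus strand) encodes an adhesion molecule of marrow macrophages, endothelium and stroma. Mono/Macro-like cells held only 10.6% of its UMIs in Col1a1fspKO and 16.9% in WT. The Neutrophil-like cluster led by Fcnb, Ms4a3 and Cebpe, genes of early neutrophil precursors, held 68.1% and 71.2%. Its level there was 31.9 CPM (21.8 to 44.97) in the Col1a1fspKO library and 34.7 CPM (24.97 to 46.8) in the WT library, with a UMI in 22 of 98 and 22 of 128 cells. The other neutrophil clusters were at 3.02 CPM (0.982 to 7.06) and 3.07 CPM (0.837 to 7.87). The Fcnb cluster was higher by 10.53 (4.07 to 34.6) times in Col1a1fspKO and 11.3 (4.09 to 43.3) times in WT. Its cells were also deeper, with medians of 8682 and 8768 UMIs against 3621 and 3880.

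Within the Fcnb cluster, Vcam1 was compared between cells with and without Mpo, an enzyme of the primary granules, a split chosen after the values had been seen. Cells with a Mpo UMI held 59.4 CPM (31.6 to 102) over 13 Col1a1fspKO cells and 90.5 CPM (58.0 to 135) over 22 WT cells. Cells without one held 24.2 CPM (14.6 to 37.8) over 85 cells and 19.01 CPM (11.3 to 30.04) over 106 cells. The intervals overlapped in Col1a1fspKO and were apart in WT, and the cells with Mpo were deeper, at medians of 16400 and 11529 UMIs against 8299 and 8422. With cells thinned to 2500 UMIs, Vcam1 was found in 0 of 13 Col1a1fspKO cells with Mpo, where a limit of 3 cells allows up to 23.1%, and in 9.41% (4.15 to 17.7) of those without, the opposite order to the CPM, so that no order was read in that library. In WT the thinned shares were 18.2% (5.19 to 40.3) and 2.83% (0.588 to 8.05), whose intervals overlapped. HSPCs-like cells, which also hold Mpo, had 1 Vcam1 UMI in Col1a1fspKO and 2 in WT. In the WT Fcnb cluster, 1 cell with 11490 UMIs held 106 of the 118 UMIs that both libraries had of the stromal chemokine Cxcl12, and 3 Vcam1 UMIs. Without it Vcam1 was at 32.5 CPM (23.1 to 44.4) in WT. Of the remaining 21 WT cells of the cluster with Vcam1, 0 had a UMI of the stromal and endothelial genes Cxcl12, Lepr, Col1a2, Cdh5 and Kdr, and 1 of 22 such cells in Col1a1fspKO had one. The endothelial gene Pecam1 was not part of this set. A C1q UMI was found in 3 of these 22 Col1a1fspKO cells and 1 of these 21 WT cells. Over the whole cluster, C1qa or C1qb was found in 7.14% of Col1a1fspKO cells and 5.47% of WT cells.

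**Figure D2:**
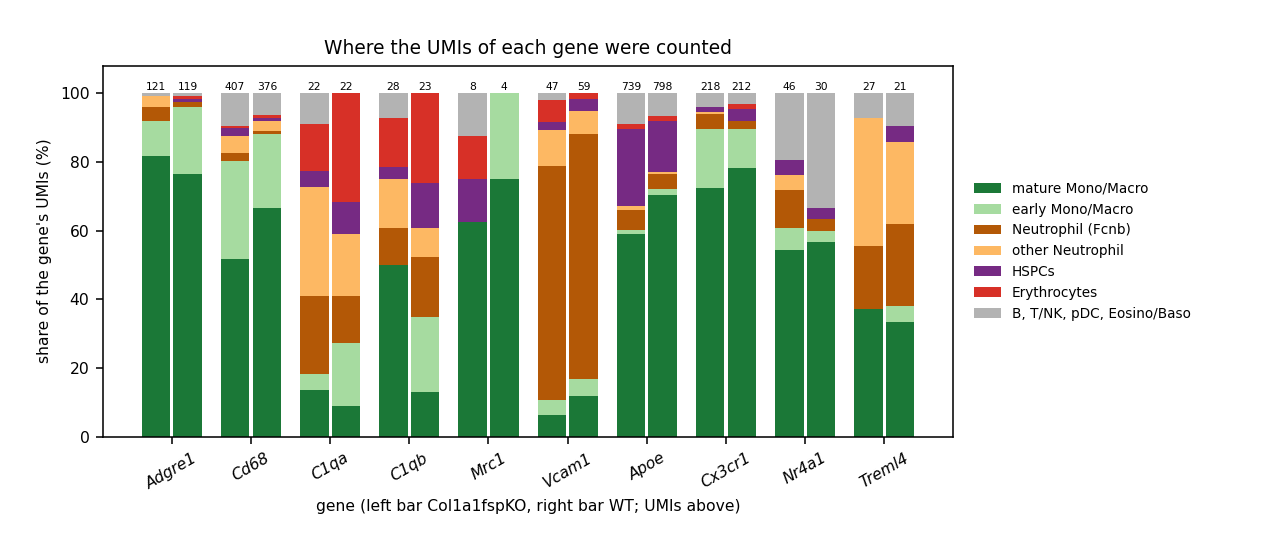
Bars give the percentage of each gene's UMIs counted in each population, the left bar of a pair for Col1a1fspKO and the right bar for WT, with the number of UMIs above each bar. The Fcnb Neutrophil-like cluster held 68.1% and 71.2% of Vcam1, and mature Mono/Macro-like cells held 81.8% and 76.5% of Adgre1.

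Nr4a1 (chr15:101254269-101274795, plus strand), the orphan nuclear receptor that Ly6C-low monocytes require, was at 26.4 CPM (17.1 to 38.9) in the Col1a1fspKO library and 17.4 CPM (10.1 to 27.9) in the WT library in mature monocytes. Early monocytes held 3 Nr4a1 UMIs in Col1a1fspKO and 1 in WT. Nr4a1 is also an immediate early gene of lymphocytes, and T/NK cells-like cells ranked highest in WT with 46.7 CPM (20.1 to 91.9). That level came from 8 UMIs in 3 of 32 cells and overlapped mature monocytes, while 58 Col1a1fspKO cells of the class held 1 UMI.

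Treml4 (chr17:48264295-48275360, plus strand), a receptor that binds dead cells and marks Ly6C-low monocytes, had 27 UMIs in Col1a1fspKO against 21 in WT. Mature monocytes held 10 and 7 of these, and early monocytes held 0 and 1. Neutrophil-like cells had 15 UMIs in 15 Col1a1fspKO cells and 10 in 10 WT cells, never more than 1 per cell. Mature monocytes ranked highest with 10.55 CPM (5.06 to 19.4) in the Col1a1fspKO library and 7.16 CPM (2.88 to 14.8) in the WT library, but overlapped the Neutrophil-like cluster led by Mmp8, which had 8.56 CPM (2.78 to 19.98) and 4.70 CPM (0.569 to 16.98).

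Over the monocyte stages, Adgre1, Cd68, Apoe and Cx3cr1 were the 4 of the 10 genes with at least 50 UMIs in each library. Of these 4, 3 were more than 2-fold higher in mature cells of Col1a1fspKO and 4 in WT. Among all genes with that many UMIs, 7.37% in Col1a1fspKO and 8.17% in WT passed the same fold in the same direction, and 19.5% and 21.2% passed it in either direction. Where early Col1a1fspKO monocytes had no UMI, a floor of 3 UMIs over the group made C1qb at least 5.01-fold and Treml4 at least 3.58-fold higher in mature cells. With the counting error of both groups, the interval of the ratio began at 3.56 for C1qb and 2.41 for Treml4. In WT, C1qb had 3 UMIs in mature and 5 in early cells, a ratio of 0.590 (0.0916 to 3.03), and the WT cell with the full C1q set held 4 of those 5.

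The lists of related genes were compared in the same way. Of 16 Ly6C-low monocyte genes 15 were listed, and 7 reached 50 monocyte UMIs in each library. Their median ratio of mature over early cells was 1.76 in Col1a1fspKO and 2.98 in WT, beside 0.934 and 0.927 over all genes tested. Past 2-fold higher were 3 genes in Col1a1fspKO and 4 in WT, and 1 gene in each was past it lower. Gngt2, a G protein subunit, was higher by 7.14 (5.32 to 9.75) and 7.50 (5.11 to 11.4) times. The transcription factor Klf2 was higher by 3.97 (3.02 to 5.28) and 4.58 (3.47 to 6.13) times, and Pou2f2 by 2.74 (2.02 to 3.75) and 2.98 (2.23 to 4.03) times. Ear2, a ribonuclease, had ratios of 1.23 (0.760 to 1.99) in Col1a1fspKO against 3.10 (1.85 to 5.41) in WT, and the difference between libraries was not tested. The gene past 2-fold lower was Spn, which encodes sialophorin (CD43), with ratios of 0.402 (0.255 to 0.619) and 0.391 (0.253 to 0.591).

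Of the resident macrophage list, 3 of 5 genes with 50 UMIs were past 2-fold higher in mature cells of Col1a1fspKO and 2 of 4 in WT, and 0 were past it lower. The median ratios over these 5 and 4 genes were 3.202 and 1.51. The medians are not alike in content, since Fcgr1 counted in Col1a1fspKO only. The receptor gene Csf1r was higher by 3.202 (2.396 to 4.33) and 2.95 (2.23 to 3.93) times, and the haem oxygenase gene Hmox1 by 3.22 (1.76 to 6.22) and 2.28 (1.30 to 4.13) times. Fcgr1, the high-affinity Fc receptor, was higher by 3.67 (1.89 to 7.66) times in Col1a1fspKO. In WT it fell just short of 50 monocyte UMIs, with 43 in mature and 6 in early cells, a ratio of 7.04 (2.98 to 20.2).

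To describe the genes at low and high Ly6C, mature monocytes of each library were ordered by Ly6c2, a gene of the Ly6C antigen, and divided into tertiles of 58 cells in Col1a1fspKO and of 62 or 63 cells in WT. The tertiles are ranges of 1 measured gene, not cell types, and were chosen after the data had been seen. From the lowest to the highest tertile Ly6c2 went from 1339.7 to 5399.8 CPM in Col1a1fspKO and from 328 to 3424 CPM in WT. The tertiles did not cover the same range in both libraries, since single cells of the lowest tertile reached 2314 CPM of Ly6c2 in Col1a1fspKO, against 862 CPM in the lowest and 2204 CPM in the middle tertile of WT. They may therefore not mark the same cells, and a value of 1 tertile was not compared between libraries. Treml4 had 10, 0 and 0 UMIs from the lowest to the highest tertile of Col1a1fspKO, and 6, 1 and 0 in WT. Against a floor of 3 UMIs the lowest tertile was at least 3.44-fold higher than the highest in Col1a1fspKO and at least 2.15-fold higher in WT. With the counting error of both tertiles, the interval of the ratio began at 2.31 and 1.27.

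Apoe in Col1a1fspKO was at 794 CPM (698 to 899.8) in the lowest tertile, 223 CPM (174 to 281) in the middle and 369 CPM (306 to 442) in the highest. In WT it was at 1170.4 CPM (1053 to 1297), 371 CPM (308 to 443) and 224 CPM (176 to 281). The lowest tertile exceeded the highest by 2.15 (1.72 to 2.70) times in Col1a1fspKO, where the middle tertile was the lowest of all, and by 5.22 (4.06 to 6.79) times in WT, where Apoe fell from step to step. For Cx3cr1 the lowest and highest tertiles held 226 CPM (176 to 286) and 144 CPM (105 to 192) in Col1a1fspKO, and 222 CPM (173 to 281) and 119 CPM (85.4 to 163) in WT. The lowest tertile exceeded the highest by 1.57 (1.07 to 2.33) and 1.86 (1.24 to 2.81) times. For comparison, the interval lay above 1 in 6.35% of genes tested in Col1a1fspKO and 8.03% in WT.

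For Adgre1 the ratio of the lowest over the highest tertile was 0.767 (0.443 to 1.31) in Col1a1fspKO against 1.37 (0.792 to 2.38) in WT, and for Cd68 it was 0.862 (0.612 to 1.21) and 1.28 (0.939 to 1.74). A relation of these genes with Ly6c2 was not detectable at this depth. The ratio for Nr4a1 was 2.58 (0.946 to 8.11) and 3.77 (0.717 to 37.2), with intervals that also included 1. C1qb had 12 UMIs in 4 cells of the lowest tertile of Col1a1fspKO and 1 in the highest, whereas each WT tertile held 1. Of the 15 listed Ly6C-low genes, 13 were higher in the lowest tertile in each library, with an interval above 1 for 6 in Col1a1fspKO and 7 in WT. Among all genes with a UMI in these tertiles, 53.7% and 52.7% were higher in the lowest tertile, and 1.84% and 2.35% had an interval above 1, with low counts included. Among the listed genes with such an interval was Ace, which encodes angiotensin-converting enzyme, with 22 UMIs in the lowest and 0 in the highest tertile of Col1a1fspKO, and 13 and 0 in WT.

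**Figure D3:**
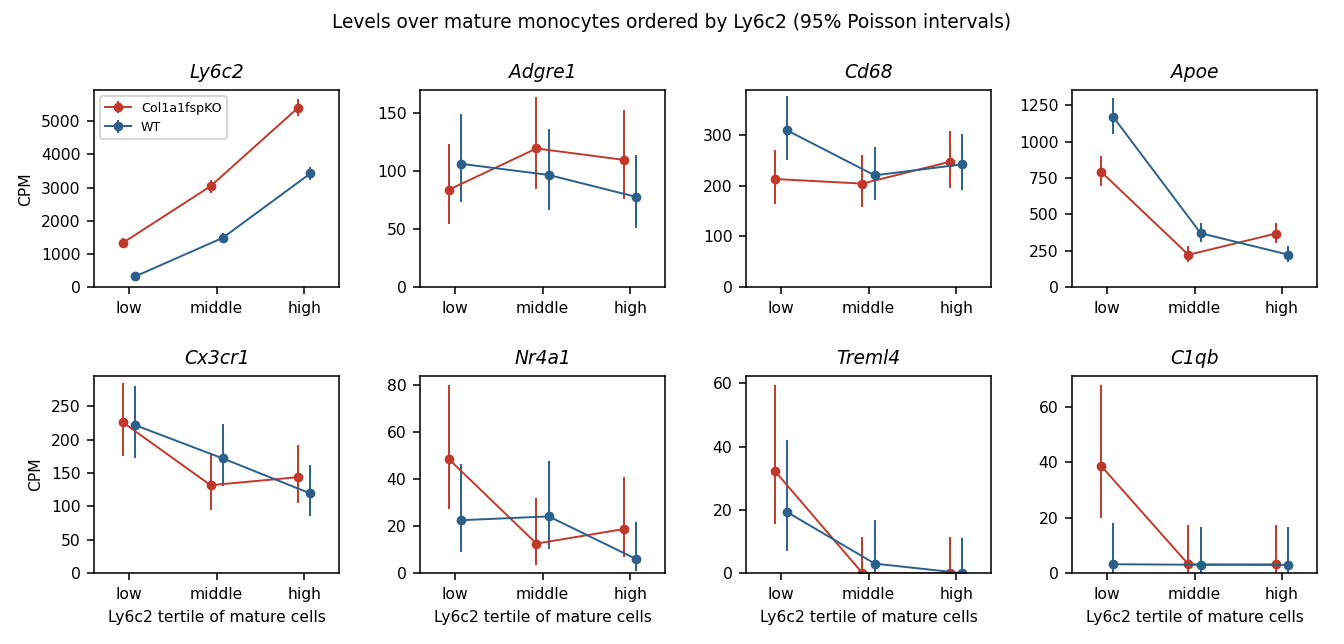
Each panel plots CPM of 1 gene over the tertiles of mature monocytes from low to high Ly6c2, as points with Poisson 95% intervals, red for Col1a1fspKO and blue for WT. Treml4, Apoe and Cx3cr1 were highest in the lowest tertile of both libraries, each with a ratio over the highest tertile whose interval lay above 1.

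The promoters of the 3 genes of the 10 whose ratio of the lowest over the highest tertile had an interval above 1 in both libraries are shown, from RefSeq on GRCm38.p6, as 250 bases before to 50 after a transcript start. Capitals mark the letters GAGGAA on either strand, the core of the site bound by PU.1, a master transcription factor of the monocyte lineage. Treml4 is chr17:48264045-48264344 on the plus strand, Apoe is chr7:19699139-19699438 on the minus strand (the first of 3 listed starts) and Cx3cr1 is chr9:120068247-120068546 on the minus strand.
Treml4: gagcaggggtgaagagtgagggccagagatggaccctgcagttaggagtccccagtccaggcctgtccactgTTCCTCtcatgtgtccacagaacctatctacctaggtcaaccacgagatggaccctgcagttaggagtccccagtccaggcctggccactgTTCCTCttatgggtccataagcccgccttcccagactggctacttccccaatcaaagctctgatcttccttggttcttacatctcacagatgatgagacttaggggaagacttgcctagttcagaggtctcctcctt
Apoe: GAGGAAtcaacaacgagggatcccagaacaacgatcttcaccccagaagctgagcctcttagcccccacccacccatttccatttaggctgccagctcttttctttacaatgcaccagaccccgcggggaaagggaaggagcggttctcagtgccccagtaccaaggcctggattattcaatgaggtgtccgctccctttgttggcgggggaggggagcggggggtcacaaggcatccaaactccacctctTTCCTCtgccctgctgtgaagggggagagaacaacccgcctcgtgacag
Cx3cr1: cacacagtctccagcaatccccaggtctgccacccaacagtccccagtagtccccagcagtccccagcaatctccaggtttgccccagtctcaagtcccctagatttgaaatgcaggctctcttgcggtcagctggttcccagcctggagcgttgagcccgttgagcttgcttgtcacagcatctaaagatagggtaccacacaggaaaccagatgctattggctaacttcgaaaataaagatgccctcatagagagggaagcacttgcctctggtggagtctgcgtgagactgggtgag
The Treml4 window held 2 matches, the Apoe window 2 and the Cx3cr1 window 0. At least 1 match was present in 28.3% of all 32851 windows of this kind, and a match does not show binding.

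Between genotypes, over all Mono/Macro-like cells, Cd68 had 166 CPM in the Col1a1fspKO library and 171 CPM in the WT library, and the ratio of Col1a1fspKO over WT was 0.971 (0.831 to 1.13). Cx3cr1 had 99.2 and 98.1 CPM with a ratio of 1.012 (0.824 to 1.24). The ratio for Adgre1 was 0.960 (0.732 to 1.26). A difference between the libraries was not detectable at this depth for these 3 genes.

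Apoe was the 1 gene of the 10 whose interval excluded no change in this class. Its level was 226 CPM (205 to 248) in the Col1a1fspKO library and 297 CPM (274 to 323) in the WT library, and the ratio was 0.760 (0.66996 to 0.862). The direction was opposite in HSPCs-like cells, with a ratio of 1.65 (1.29 to 2.10). An Apoe UMI was nevertheless found in similar shares of HSPCs-like cells, 28 of 75 in Col1a1fspKO and 29 of 76 in WT. A single cell held up to 17 UMIs in each library. Over all cells the ratio was 0.924 (0.835 to 1.02), with an interval that included 1. Of all genes tested, 11.9% had an interval that excluded 1 in Mono/Macro-like cells and 6.83% were past 1.5-fold in either direction, a fold reached by 0 of the 4 genes with at least 50 UMIs. The median log2 ratio was -0.05 for these 4 genes and -0.01 for all genes tested. In Mono/Macro-like cells an Apoe UMI was found in 31.1% (25.6 to 37.0) of cells in the Col1a1fspKO library and 25.7% (20.7 to 31.3) in the WT library. The difference was 5.36 points (-2.22 to 12.9), with an interval that included 0. With cells thinned to 2500 UMIs these shares were 20.2% and 21.4%, and B cells-like cells had unthinned shares of 7.26% and 4.98%. Mature cells with 10 or more Apoe UMIs numbered 14 in Col1a1fspKO and 24 in WT.

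Ly6c2 also differed between the libraries in the cells that hold most Apoe. In mature monocytes Ly6c2 was higher in Col1a1fspKO by 1.84 (1.74 to 1.95) times, whereas in early monocytes the ratio was 1.04 (0.989 to 1.09). With the median over all mature cells as 1 cutoff for both libraries, 53 of 174 Col1a1fspKO cells and 127 of 187 WT cells lay below it. Below the cutoff Apoe was at 748 CPM (650.2 to 856) and 744 CPM (679 to 813) respectively. At or above it Apoe was at 336 CPM (294 to 384) and 233 CPM (183 to 292). Ly6c2 was itself higher in Col1a1fspKO, beyond counting error, in 8 of 12 populations, B cells-like and T/NK cells-like among them, and lower in 1. Reads of Ly6c2 may also be divided with its close copy Ly6c1. The part of Ly6c2 in the Apoe difference was not tested.

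The counts of the rarer genes did not separate the libraries over the class. Nr4a1 had 28 UMIs in Col1a1fspKO against 18 in WT, with a ratio of 1.53 (0.819 to 2.94). Treml4 had 10 and 8 UMIs, with a ratio of 1.23 (0.438 to 3.59). C1qb had 14 and 8 UMIs, with a ratio of 1.73 (0.675 to 4.75). C1qa had 4 and 6, and Mrc1 5 and 4. Vcam1 had 5 and 10, and 7 of the WT UMIs came from 1 mature cell. Over the class, the interval of the difference in shares excluded 0 for 0 of the 10 genes. Such intervals were not counted over all genes, and a gene found in few cells could hardly give one.

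Each monocyte stage was compared between genotypes after these values had been seen. In mature cells C1qb was at 14.8 CPM (8.07 to 24.8) in the Col1a1fspKO library and 3.07 CPM (0.633 to 8.97) in the WT library, a ratio of 4.81 (1.34 to 26.1). Beside Apoe, whose ratio was 0.798 (0.702 to 0.906), it was the only gene of the 10 with an interval that excluded 1 there. Of all genes with at least 50 UMIs in mature cells, a number that C1qb did not reach, 12.2% had such an interval. The C1qb UMIs came from 6 and 3 cells, and without the cell richest in C1qb in each library the ratio was 4.65 (0.963 to 44.2). Adgre1 was found in 8 of 93 early Col1a1fspKO cells and 19 of 89 early WT cells, a difference of -12.7 points (-23.2 to -2.35), or -7.96 points (-16.1 to -0.837) with cells thinned to 2500 UMIs. B cells-like cells had an Adgre1 share of 0% in Col1a1fspKO, where 0 of 248 cells allows up to 3 cells or 1.21%, and 0.452% in WT. The early level of Adgre1 had a ratio of 0.493 (0.223 to 1.03), an interval that included 1. In mature cells the difference in Adgre1 shares was 3.45 points (-6.60 to 13.4). The ratio for Cd68 was 1.35 (1.009 to 1.82) in early and 0.866 (0.717 to 1.04) in mature cells, and whether the stages differ was not tested. In early Col1a1fspKO cells 1 cell held 14 of the 116 Cd68 UMIs. A Cd68 UMI was found in 54 of 93 early Col1a1fspKO cells and 51 of 89 early WT cells. The share of all genes with an interval that excluded 1 was not counted in early cells.

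**Figure D4:**
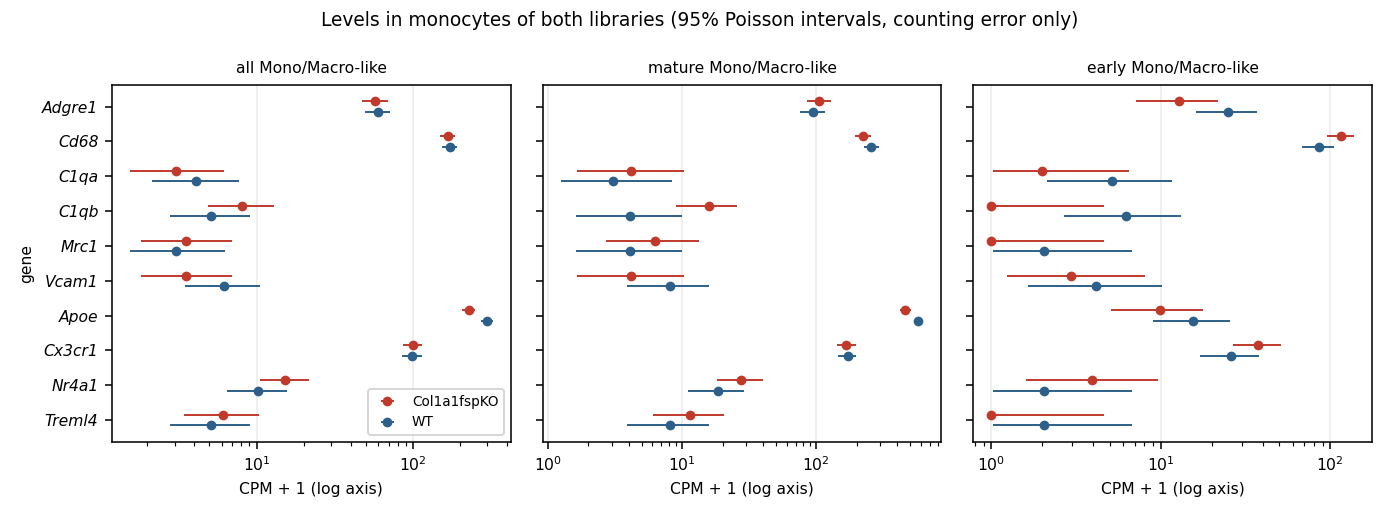
CPM + 1 of each gene on a log axis in all, mature and early Mono/Macro-like cells, as points with Poisson 95% intervals, red for Col1a1fspKO and blue for WT. Apoe was lower in Col1a1fspKO over all Mono/Macro-like cells, at 226 against 297 CPM, and the intervals of the other 9 genes overlapped there.

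Of the resident macrophage list, 6 genes had at least 50 UMIs in Mono/Macro-like cells, with a median ratio of Col1a1fspKO over WT of 0.918. Of these, 0 were past 1.5-fold higher in Col1a1fspKO, and genes past it lower are not reported here. Among all genes tested in the class, 6.83% were past 1.5-fold in either direction. Of the Ly6C-low list, 9 genes reached 50 UMIs, with a median ratio of 0.935. The 1 gene past 1.5-fold was Gngt2, with 398 UMIs in Col1a1fspKO and 259 in WT, a ratio of 1.51 (1.29 to 1.78).

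Cell by cell, 461 of 543 Mono/Macro-like cells had a UMI of at least 1 of the 10 genes. At least 3 of the genes were found in 29.96% of these cells in Col1a1fspKO and 27.9% in WT. The pair most often found together was Cd68 and Cx3cr1, in 170 cells, of which 160 were Mono/Macro-like. Among Mono/Macro-like cells with Cd68, 46.2% also held Cx3cr1, near the 41.8% of the whole class. The rank of this pair therefore owes much to how often each gene was detected. Adgre1 and Cx3cr1 were found together in 96 cells. Of the 15 Mono/Macro-like cells with Treml4, 13 had an Apoe UMI and 12 a Cx3cr1 UMI. Over the whole class the shares were 28.4% for Apoe and 41.8% for Cx3cr1. However, 14 of the 15 cells were in the mature cluster, where 141 of 361 cells had an Apoe UMI and 187 a Cx3cr1 UMI. C1qa and C1qb shared 10 cells out of 34 with C1qa and 38 with C1qb. All of C1qa, C1qb, Mrc1 and Vcam1 were found together in 0 cells, and 3 of these 4 genes in 3 cells. The cell with the most genes of the set was a mature Col1a1fspKO monocyte with 5083 UMIs and 8 of the 10 genes, lacking C1qa and Treml4.

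Over the 15 clusters, libraries summed, Pearson's r of log2(CPM + 10) named the genes most alike in pattern. It is a description, since the clusters share both libraries and differ in depth. Adgre1 was close to Zfyve9 and Lrp1, each at r = 0.97. Cx3cr1 was closest to Ms4a8a at 0.97, followed by Lrp1 and Cyp4v3 at 0.96. Cd68 was closest to Mpeg1 at 0.96, followed by Fcgrt and Ctage5 at 0.92. Vcam1 was closest to Mogat2 and Cxcl12 at 0.90 and to Fcnb at 0.84, and the Cxcl12 pattern comes mainly from 1 WT cell. Apoe reached only 0.76 with Dapp1, Anxa4 and Tbc1d13. C1qb reached 0.75 with Dpep2, 0.72 with Tppp3 and 0.71 with St3gal2. Nr4a1 was closest to Grk5 and Ckb at 0.90 and to Maf at 0.89.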

How the data were processed

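UMI counts per gene and cell were used as deposited. Per the submitters' processing notes, the authors made them with Cell Ranger (version not given in the sources used here) on mm10, and used Seurat 3.5.3. The study's limits of 200 to 7000 genes and 10% mitochondrial UMIs removed 0 cells. Clusters came from Seurat 5.3.0 under R 4.3.3, after log-normalization, from 2000 variable genes without the 10 genes and both related lists, 27 principal components and Louvain resolution 0.8. Libraries were not integrated, and doublets called by Scrublet (scanpy 1.11.5, Python 3.11.15) were kept. A cluster took the class with the highest mean z-score of its markers. The totals were 8647722 UMIs in Col1a1fspKO and 8624469 in WT.

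UMIs were summed per population and library. CPM had exact Poisson intervals, ratios exact binomial intervals, shares Clopper-Pearson intervals and differences of shares Newcombe intervals (scipy 1.17.1), all at 95%. A count of 0 cells or UMIs was given a limit of 3. The ratio interval was tried on counts simulated from a Poisson model, without unevenness between cells. That trial could not show how well the interval covers the uneven counts of these data. Counts over genes needed 50 UMIs in the cells compared. The text names the 10 genes, related genes past 1.5-fold between genotypes or 2-fold between stages, and the 3 genes most like each gene with 50 UMIs. Some genes that this rule names are not reported here. Ace was chosen after its values were seen. The genes and lists were chosen with earlier results of these data known.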

Additional observations from a re-analysis of the deposited data

How the results depend on the processing

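No paired analysis was possible because each genotype had 1 library, and for the same reason no replicate could be left out. Under 12 other settings of the clustering, cell filters and depth, the number of the 10 genes whose genotype interval excluded no change stayed at 1. In the mature cluster alone, a setting chosen after seeing the data, it was 2, with C1qb beside Apoe, against 12.2% of all genes tested there. Without the cell richest in C1qb in each library the interval for C1qb included no change, at a ratio of 4.65 (0.963 to 44.2). The log2 ratio of Vcam1 between genotypes was -1.02, and 0.71 without the cell richest in Vcam1 in each library, and both intervals included 0. With cells thinned to 2500 UMIs, Mono/Macro-like cells held 72.7% of Apoe UMIs in Col1a1fspKO and 83.2% in WT, against 60.1% and 72.2% unthinned. 0 called values changed sign. C1qa, C1qb, Mrc1, Vcam1, Nr4a1 and Treml4 are limited by depth, and genotype and library cannot be told apart.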
